A study of Mus musculus with 18 samples.

Results

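Apolipoprotein L (Apol) proteins share a helical, lipid-binding core and act mainly inside cells, at membranes. In the mouse the family has expanded by duplication into a cluster on chromosome 15, and several of its members are known to respond to interferons and to ligands of Toll-like receptors. In dendritic cells (DCs) Apol7c is known to be recruited to phagosomes, where it acts on the membrane during cross-presentation, and Apol9a and Apol9b are interferon-stimulated genes.

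The 8 genes described here (Apol6, Apol7a, Apol7b, Apol7c, Apol8, Apol9a, Apol9b, and Apol10b) were chosen by family name from the 29875 rows of the deposited count table, because Apol8 showed the largest rise in collagen of all genes tested in these data. Of the 8 genes, 7 had a row in the table, and 5 were among the 13844 genes that passed edgeR's filter on low counts. The contrasts of Apol8 with suspension therefore picked the set, and they are given as a description with no test. Its density series is described in the same way, because the collagen libraries that picked it, and through which it passed the filter, make up that series. The other members were taken by name and were tested.

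RNA was sequenced from DCs that were grown from the bone marrow of wild-type C57Bl6/J mice aged 8 to 12 weeks in medium with GM-CSF. All cells, controls included, received lipopolysaccharide (LPS, 200 ng/ml) from day 8 for 24 hours, so no unstimulated DCs enter any comparison. The cells were then loaded into migration chambers in bovine collagen gels of 1.7, 2.6, 3.5, or 4.4 mg/ml, or without collagen (suspension), and lysed for RNA 5 hours after CCL19 was added as a gradient. Each of the 6 groups, 4 collagen densities and 2 suspension groups, holds 3 replicates, which makes 18 libraries. The suspension groups are titled plus CCL19 and without CCL19, but the library names give the opposite CCL19 state, so the groups are called here by their titles and no CCL19 direction is read. The labels call the replicates biological without naming the animals, and each replicate number goes with its own date in the library names and its own lane, so a replicate number is also a batch, with each group present once.

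Library totals ranged from 13062944 to 28059839 counts, at which 3 counts in a library correspond to 0.0939 to 0.256 CPM (counts-per-million, a gene's counts scaled to the TMM-adjusted library size). All 12 defining DC markers, among them Ccr7, Fscn1, Cd40, and Zbtb46, were detected in 18 of 18 libraries. Detection alone does not set DCs apart, since 10 neutrophil markers were detected in all 18 libraries as well. The summed level of the DC markers was 18725 to 55635 CPM in suspension and 25944 to 60986 CPM in collagen. It was lowest in suspension of replicate 1 (18725 and 22295 CPM). Of these markers Flt3 was lower in collagen (log2 fold change -1.12 ± 0.35) and Cd80 higher (0.78 ± 0.22). The summed level of 8 eosinophil markers was 117 to 1338 CPM in suspension and 14.0 to 167 CPM in collagen. In collagen 7 of the 7 that were tested were lower (median log2 fold change -3.05), beside 12.4% of all genes tested. In bulk RNA, fewer cells of a type and less RNA per cell cannot be told apart.

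The members lie between positions 77044729 and 77757003 of chromosome 15 (GRCm38), a stretch of 712 kb, with Apol6 at one end and Apol8 at the other. Apol8 (ENSMUSG00000056656) occupies 77747798 to 77757003 on the minus strand, next to Apol9b at 77729039 to 77736382 on the plus strand. Apol9a (77403789 to 77411135, minus strand) lies apart from Apol9b, between Apol7a and Apol7b, and Apol7c (77524852 to 77533316) and Apol10b (77583819 to 77596125), both on the minus strand, lie in the middle. All 8 are annotated as protein-coding.

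RefSeq promoters (GRCm38.p6, 250 bases before to 50 bases after the annotated start) were matched by symbol for 7 of the 8 members. The 4 printed here belong to Apol8 and to the 3 other members with the highest mean levels per length, since the results turn on how these genes differ. Apol9a was ahead of Apol10b by its mean only, and the spread does not rank these 2 genes. They span chr15:77756961-77757260 for Apol8 (minus strand), chr15:77411031-77411330 for Apol9a (minus strand), chr15:77728822-77729121 for Apol9b (plus strand), and chr15:77533266-77533565 for Apol7c (minus strand). Capitals mark matches to the core of the interferon-stimulated response element (ISRE, GAAA and GAAA with any 2 bases between them) or to the AP-1 motif (TGANTCA), on either strand. In each run of ISRE letters below, 2 matches overlap.
Apol8: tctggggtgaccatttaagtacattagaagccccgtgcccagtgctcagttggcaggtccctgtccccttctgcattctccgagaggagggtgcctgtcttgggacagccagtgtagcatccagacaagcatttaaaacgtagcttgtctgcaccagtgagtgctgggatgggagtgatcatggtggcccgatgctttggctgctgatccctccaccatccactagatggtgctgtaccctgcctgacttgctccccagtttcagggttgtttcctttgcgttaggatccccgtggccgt
Apol9a: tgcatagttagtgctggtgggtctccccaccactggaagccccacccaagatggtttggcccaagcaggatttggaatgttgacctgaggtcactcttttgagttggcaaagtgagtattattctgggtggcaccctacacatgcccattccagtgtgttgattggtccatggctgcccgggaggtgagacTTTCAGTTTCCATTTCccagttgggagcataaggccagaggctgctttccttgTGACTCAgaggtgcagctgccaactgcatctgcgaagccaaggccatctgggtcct
Apol9b: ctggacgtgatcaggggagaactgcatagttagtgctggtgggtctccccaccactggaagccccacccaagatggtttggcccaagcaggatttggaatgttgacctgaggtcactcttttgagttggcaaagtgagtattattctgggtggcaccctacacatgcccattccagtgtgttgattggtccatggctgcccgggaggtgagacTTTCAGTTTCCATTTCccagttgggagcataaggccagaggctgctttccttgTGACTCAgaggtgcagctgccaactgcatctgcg
Apol7c: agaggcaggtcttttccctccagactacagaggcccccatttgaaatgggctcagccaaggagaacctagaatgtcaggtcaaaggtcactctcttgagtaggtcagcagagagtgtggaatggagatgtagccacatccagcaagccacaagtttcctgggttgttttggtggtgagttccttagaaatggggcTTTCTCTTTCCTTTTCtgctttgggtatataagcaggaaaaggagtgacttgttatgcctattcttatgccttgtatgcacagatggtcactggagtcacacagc

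The promoters of Apol9a and Apol9b held 2 overlapping ISRE cores each, starting at positions -59 and -53 from the RefSeq start in Apol9a and at -37 and -31 in Apol9b, and both held 1 AP-1 motif. Apol7c held 2 overlapping ISRE cores at -55 and -49, and Apol10b held 1 at -4. The Apol8 window held no match to the ISRE core, to the AP-1 motif, or to the interferon gamma-activated site (GAS, TTCNNNGAA), which says only that these letters are absent from these 300 bases. The same was true of Apol7a and Apol7b. Of 32851 RefSeq mouse promoters of this length, 3.44% held the ISRE core, 7.81% the AP-1 motif, and 8.3% the GAS. The windows of Apol9a and Apol9b were identical over 278 of 278 aligned bases. A match of letters is a description of the sequence and not a measured binding site.

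**Figure D1:**
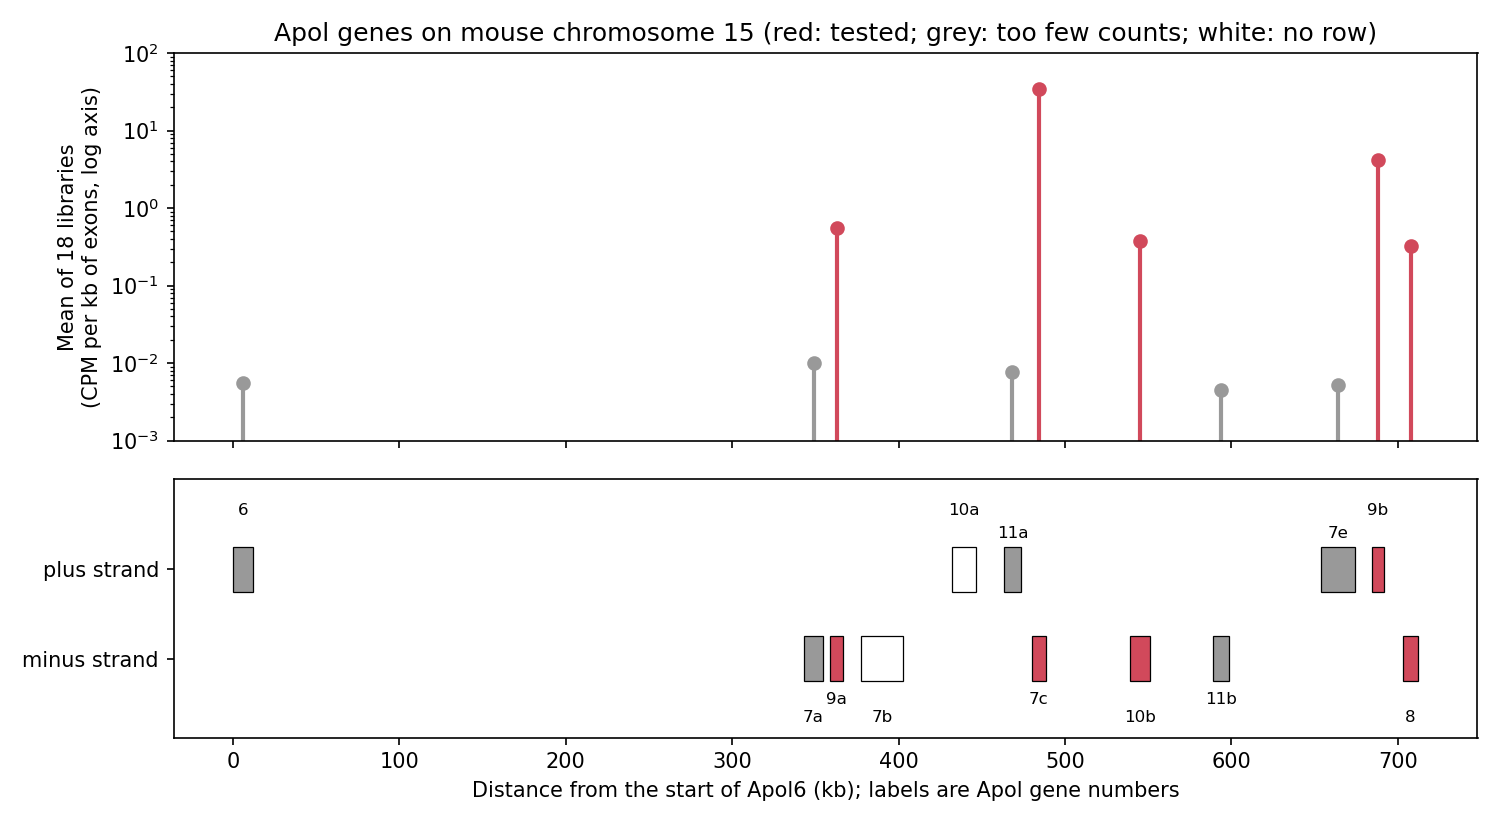
Mean level of each Apol gene of chromosome 15 over 18 libraries (CPM per kb of exons, log axis, upper panel) against its distance from the start of Apol6 in kb, with gene bodies by strand in the lower panel (red, tested; grey, too few counts to test; white, no row in the table). Apol7c stood highest at 34.5 CPM per kb, the other 4 tested genes lay between 0.325 and 4.13, and the untested genes were near 0.01 or lower.

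Per kb of exons, Apol7c was the most abundant member, with a mean of 34.5 ± 36.3 CPM per kb (SD, n = 18 libraries). Apol9b followed with 4.13 ± 5.02, Apol9a with 0.547 ± 0.696, Apol10b with 0.371 ± 0.569, and Apol8 with 0.325 ± 0.552 CPM per kb. The spread over libraries was as large as these means or larger, so Apol9a, Apol10b, and Apol8 cannot be ranked among each other. The order also depended on the replicate. In replicate 1 Apol9b made up 58.7% of the family's summed level per length and Apol7c 31.4%, whereas Apol7c made up 92.0% in replicate 2 and 97.7% in replicate 3.

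Of the remaining members, Apol6, whose human relative has been linked to apoptosis, had 8 counts in all in 4 libraries, and Apol7a had 12 counts in 4 libraries. Neither was tested. Apol7b is not analysed here. Of 5 further Apol genes, Apol7d, Apol7e, Apol11a, and Apol11b had 3 to 6 counts each over the 18 libraries and were not tested, and Apol10a is not analysed here. Apol7d lies outside the cluster, on chromosome 1, and is annotated as antisense.

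Reads of duplicated genes can be counted for the wrong copy, and although the study's methods name RSEM for TPM values, the tool behind these counts is not given in the sources used here. Of the 50-base windows in the annotated transcripts of Apol8, 0 of 3037 occurred in another gene. Apol9a and Apol9b shared 975 windows, 16.5% of those of Apol9a and 52.3% of those of Apol9b, so that the split of counts between these genes is uncertain. Of the windows of Apol7c, 25.6% occurred in other genes (15.9% in the neighbouring gene Gm8221), and of those of Apol10b 6.11%.

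Apol8 was barely detected in suspension and had counts in all 12 collagen libraries. In suspension, 5 libraries had 0 counts, and replicate 3 of the group titled without CCL19 had 1 count (0.06 CPM). At 1.7 mg/ml the 3 replicates had 0.31, 0.12, and 0.05 CPM (4, 2, and 1 counts). At 2.6 mg/ml they had 0.66, 2.60, and 1.72 CPM (11, 36, and 55 counts). At 3.5 mg/ml they had 0.89, 0.49, and 0.15 CPM (13, 7, and 2 counts), and at 4.4 mg/ml 3.02, 6.39, and 0.85 CPM (67, 75, and 17 counts). The 12 collagen libraries thus ranged from 0.05 to 6.39 CPM, and only the library with 1 count at 1.7 mg/ml did not exceed every suspension library.

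As a description of the choice, Apol8 ranked 1 of 13844 genes by the fitted log2 fold change of collagen against suspension. Summed over libraries, 290 counts were found in collagen and 1 in suspension, a ratio of 155 after division by library totals, with an exact 95% counting interval of 27.5 to 6123. By density the ratio was 16.1 (2.07 to 725) at 1.7 mg/ml, 194 (34.0 to 7720) at 2.6 mg/ml, 58.1 (9.39 to 2399) at 3.5 mg/ml, and 297 (52.5 to 11784) at 4.4 mg/ml. These intervals cover counting error only, not the spread between replicates, and all 5 ratios share the same suspension count. The mean over collagen was 1.44 ± 1.84 CPM (SD, n = 12) and over suspension 0.01 ± 0.02 CPM (SD, n = 6).

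**Figure D2:**
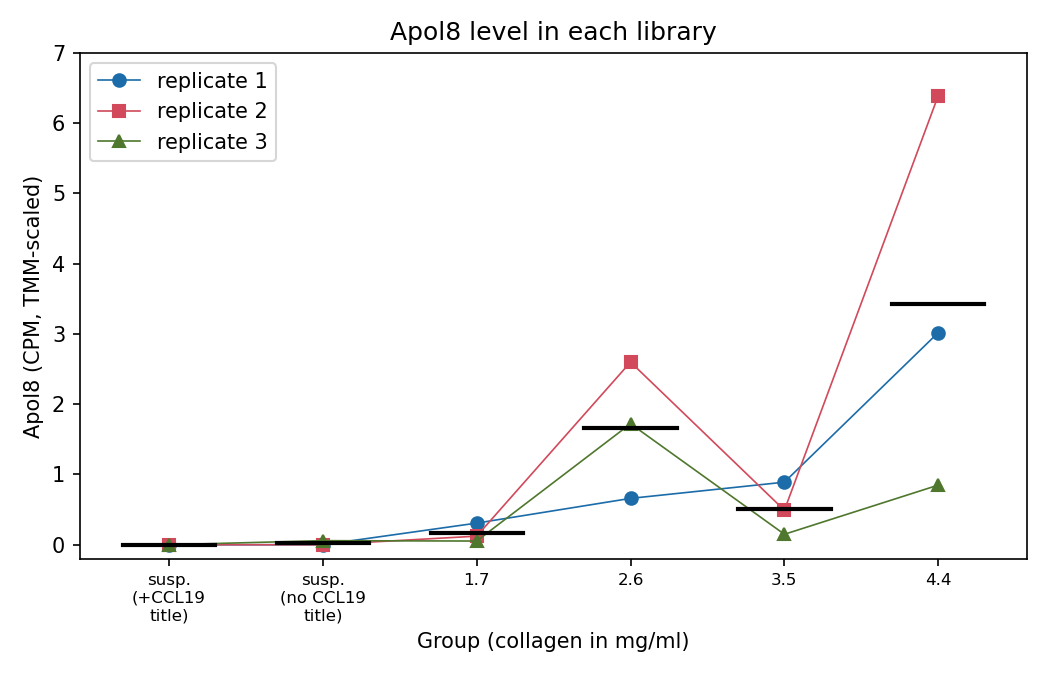
Apol8 level (CPM, linear axis) in each of 18 libraries by group, with replicates 1, 2, and 3 as circles, squares, and triangles joined by lines and black bars for group means. Suspension lies at 0 to 0.06 CPM, the means at 2.6 and 4.4 mg/ml (1.66 and 3.42 CPM) lie above those at 1.7 and 3.5 mg/ml (0.16 and 0.51 CPM), and 4.4 mg/ml is the highest group in replicates 1 and 2 but not in replicate 3.

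The rise of Apol8 with density was uneven. The group means were 0.16 ± 0.13, 1.66 ± 0.97, 0.51 ± 0.37, and 3.42 ± 2.79 CPM (SD, n = 3 each) from 1.7 to 4.4 mg/ml, so that 3.5 mg/ml lay below 2.6 mg/ml. Within replicates, 4.4 mg/ml was highest in replicates 1 and 2, and 2.6 mg/ml was highest in replicate 3, while 1.7 mg/ml was lowest in all 3. The log2 difference between 4.4 and 1.7 mg/ml was 2.91, 4.81, and 2.57 in replicates 1, 2, and 3.

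The fitted slope over density was 1.28 ± 0.35 log2 units per mg/ml of Apol8 (SE) in edgeR's fit and 1.20 ± 0.32 with the replicate number as a block. The fitted difference between 4.4 and 1.7 mg/ml was 4.41 ± 1.04, and 4.24 ± 0.93 with the block. Without replicate 2 at 4.4 mg/ml, the library with the highest Apol8 level, it was 3.60, and 3.58 with the block. These values rest on 1 to 4 counts per library at 1.7 mg/ml and are not tested. Of the other 4 tested members, 0 passed the false discovery rate (FDR) of 0.1 in edgeR's quasi-likelihood test for the slope, where 0.00722% of all genes did, and 0 for 4.4 against 1.7 mg/ml, where 0.00722% did as well. With the block 0 of 4 passed for the slope (1.45% of all genes) and 0 of 4 for 4.4 against 1.7 mg/ml (1.73% of all genes).

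Apol8 also differed from the other members in how its values were spread. The group accounted for 86.2% of the sum of squares of its log2 CPM and the replicate number for 2.75%. For the other 4 tested members the replicate number accounted for 69.2% to 85.7% and the group for 5.61% to 14.8%. Over all tested genes the medians were 25.5% for the replicate number and 33.6% for the group. Since Apol8 was picked for its difference between groups, these shares are a description.

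In edgeR with all 18 libraries and the filter on low counts, the other tested members did not pass in any contrast with suspension without the block. Without the filter Apol7c and Apol9a passed for collagen, and Apol7c, Apol9a, and Apol9b for 4.4 mg/ml (9.09% and 7.98% of all genes). Of Apol7c, Apol9a, Apol9b, and Apol10b, 0 of 4 passed for collagen against suspension, where 20.2% of all genes did, and 0 of 4 for 4.4 mg/ml against suspension, where 14.8% did. At 1.7, 2.6, and 3.5 mg/ml 0 of 4 passed as well, beside 0.0361%, 7.87%, and 4.9% of all genes. With the block, 1 of 4 passed for collagen against suspension (34.8% of all genes) and 2 of 4 for 4.4 mg/ml (31.9%), while 0 of 4 passed at 1.7, 2.6, and 3.5 mg/ml (2.91%, 21.6%, and 18.4%). All of these contrasts share the same 6 suspension libraries.

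Apol9a and Apol9b, the interferon-stimulated pair, varied more between replicates than between groups. In replicate 1 Apol9b had 22.7, 18.6, 20.7, and 21.9 CPM from 1.7 to 4.4 mg/ml, against 16.7 and 10.2 CPM in suspension titled plus and without CCL19. In replicate 2 it had 0.67, 1.16, 0.49, and 16.5 CPM in collagen, against 0.72 and 1.50 CPM in suspension. In replicate 3 it had 1.47, 0.31, 0.22, and 1.25 CPM in collagen, against 0.29 and 0 CPM in suspension. All 4 collagen libraries of replicate 1 exceeded both suspension libraries, the 4.4 mg/ml library of replicate 2 stood far above the other 5 of its replicate, and replicate 3 was low throughout.

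Apol9a moved alongside at a lower level. It had 9.24, 9.06, 10.3, and 11.0 CPM in collagen and 5.87 and 3.74 CPM in suspension in replicate 1. In replicate 2 it had 0.06 to 0.07 CPM at 1.7 to 3.5 mg/ml, 6.14 CPM at 4.4 mg/ml, and 0.07 and 0.82 CPM in suspension. In replicate 3 it had 0.22 to 0.68 CPM in collagen and 0 counts in both suspension libraries. The ratio of Apol9b to Apol9a counts was 2.26, 2.88, and 1.78 in replicates 1, 2, and 3.

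**Figure D3:**
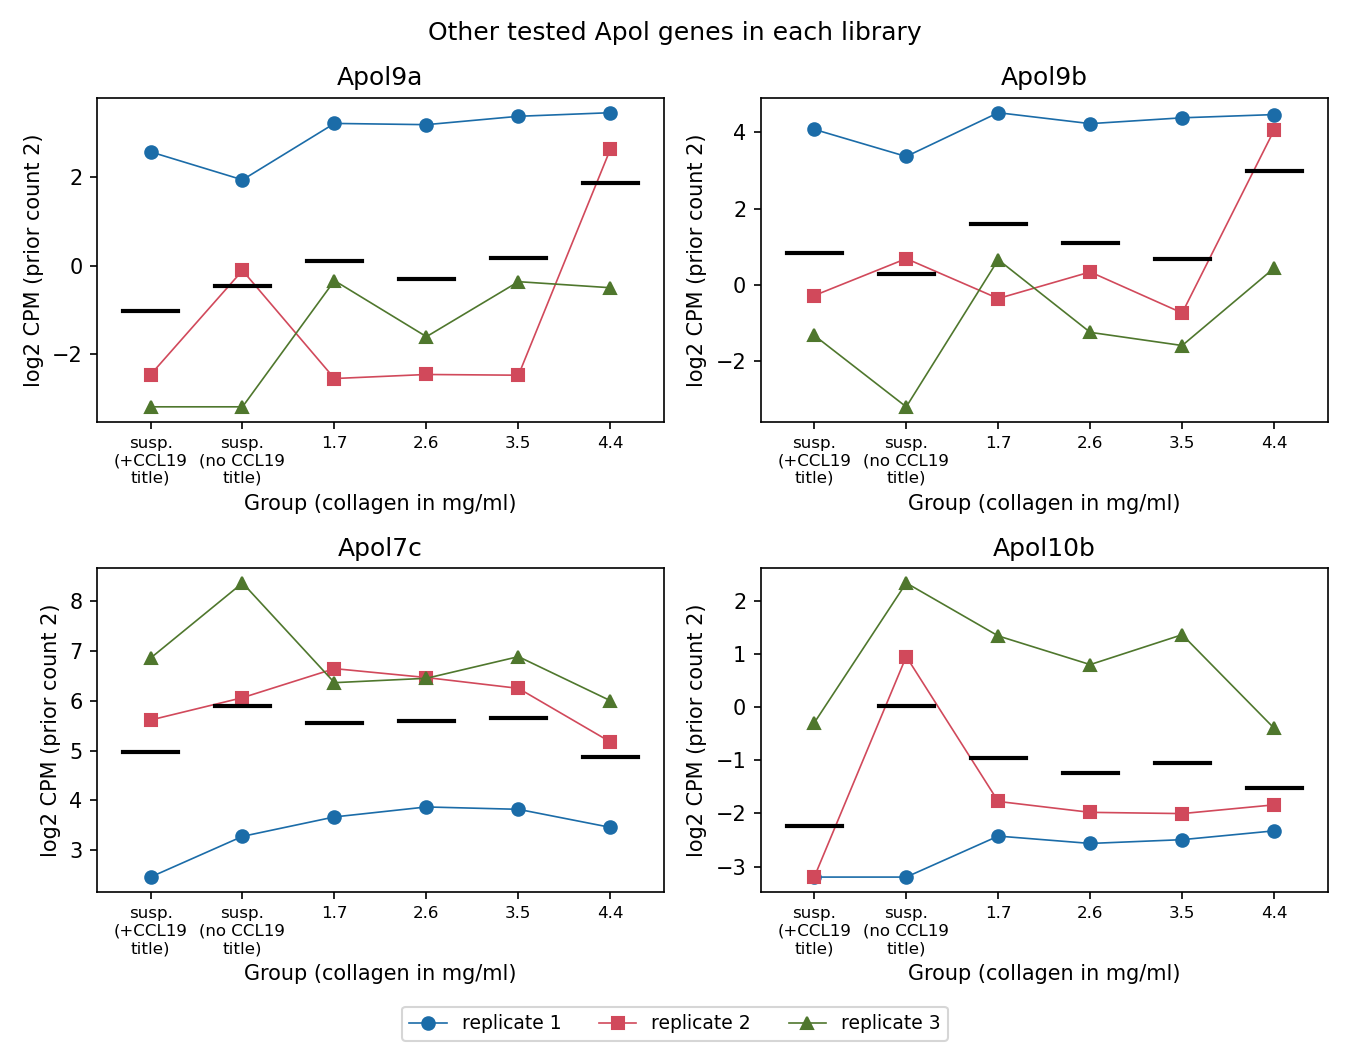
Log2 CPM (prior count of 2) of Apol9a, Apol9b, Apol7c, and Apol10b in each of 18 libraries by group, with replicates 1, 2, and 3 as circles, squares, and triangles and black bars for group means; libraries with 0 counts lie at about -3.2. Apol9a and Apol9b are high in replicate 1 and in the 4.4 mg/ml library of replicate 2, whereas Apol7c and Apol10b are lowest in replicate 1.

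For collagen against suspension, the log2 fold change of Apol9b was 0.81 ± 1.18 without the block (FDR 0.70) and 1.16 ± 0.50 with it, where it passed (FDR 0.098). Apol9a had 1.14 ± 1.26 (FDR 0.60) and, with the block, 1.42 ± 0.68 (FDR 0.13). For 4.4 mg/ml against suspension Apol9b had 1.45 ± 1.55 (FDR 0.60) and Apol9a 1.75 ± 1.62 (FDR 0.53). With the block both passed, at 2.83 ± 0.66 for Apol9b (FDR 0.0051) and 3.05 ± 0.88 for Apol9a (FDR 0.018). With the counts of both genes summed, which removes the uncertain split between them, the blocked change was 1.29 ± 0.54 for collagen (FDR 0.084) and 2.95 ± 0.70 for 4.4 mg/ml (FDR 0.0058).

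The blocked calls of Apol9a and Apol9b as single genes did not pass when 1 library was left out by itself. Without replicate 2 at 4.4 mg/ml alone, the blocked change at 4.4 mg/ml was 1.18 ± 0.64 for Apol9b (FDR 0.22) and 1.15 ± 0.88 for Apol9a (FDR 0.40), and for collagen against suspension it was 0.65 for Apol9b (FDR 0.27). With the whole of replicate 2 left out, so that its suspension libraries were absent too, the blocked change at 4.4 mg/ml was 1.60 ± 0.58 for Apol9b (FDR 0.092) and 1.87 ± 0.66 for Apol9a (FDR 0.082). Both passed in that fit, as did 20.2% of all genes. Without replicate 1 both passed at 4.4 mg/ml even without the block, at 3.96 ± 1.05 for Apol9b (FDR 0.038) and 4.89 ± 1.37 for Apol9a (FDR 0.048), beside 11.8% of all genes. The values at 4.4 mg/ml lay above both suspension libraries of the same replicate in 3 of 3 replicates for Apol9a and for Apol9b, as they did for 13.3% of all genes tested. With the filter, neither gene had a slope over density that passed with or without the block (FDR 0.42 to 0.99). Without the filter the blocked slope passed for both, at 0.71 for Apol9a (FDR 0.025) and 0.50 for Apol9b (FDR 0.083), beside 2.1% of all genes.

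Apol7c, the most abundant member, did not follow Apol8. In replicate 1 it had 12.6, 14.5, 14.0, and 10.9 CPM from 1.7 to 4.4 mg/ml and 5.41 and 9.61 CPM in suspension titled plus and without CCL19. In replicate 2 it had 99.8, 88.2, 75.9, and 36.0 CPM in collagen and 48.8 and 66.6 CPM in suspension. In replicate 3 it had 82.1, 87.3, 118, and 63.9 CPM in collagen and 116 and 328 CPM in suspension. Collagen lay above suspension in replicate 1, and below the higher of the suspension libraries throughout replicate 3, whereas 4.4 mg/ml was the lowest collagen density in all 3 replicates.

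The mean log2 difference of Apol7c between collagen and suspension was 0.83 in replicate 1, 0.30 in replicate 2, and -1.18 in replicate 3, so that its direction depended on the replicate. The fitted change was -0.62 ± 0.68 (FDR 0.60), and -0.11 ± 0.27 with the block (FDR 0.80). Without replicate 3 it turned to 0.38 ± 0.84 (FDR 0.83), and to 0.57 ± 0.21 with the block, which passed (FDR 0.084), beside 25.5% of all genes. At 4.4 mg/ml the change was -1.24 ± 1.05 (FDR 0.49), and -0.65 ± 0.38 with the block (FDR 0.24). Without replicate 1 the blocked change at 4.4 mg/ml was -1.18 ± 0.45, which passed (FDR 0.096), beside 18.6% of all genes. Without the filter the unblocked change at 4.4 mg/ml was -1.30 ± 0.36, which passed (FDR 0.0096), beside 7.98% of all genes. The slope of Apol7c over density was -0.26 ± 0.40 (FDR 0.99), and -0.23 ± 0.15 with the block (FDR 0.53).

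Apol10b was scarce, and its counts came mostly from replicate 3. It had 46, 52, 33, and 13 counts from 1.7 to 4.4 mg/ml in that replicate (2.42, 1.63, 2.46, and 0.65 CPM) and 17 and 85 counts in suspension titled plus and without CCL19 (0.71 and 4.92 CPM). In replicates 1 and 2 it had 0 to 3 counts per library, except for 40 counts (1.82 CPM) in suspension titled without CCL19 of replicate 2. Its change in collagen was -0.25 ± 1.07 (FDR 0.91), and at 4.4 mg/ml it was -1.27 ± 1.61 (FDR 0.67).

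**Figure D4:**
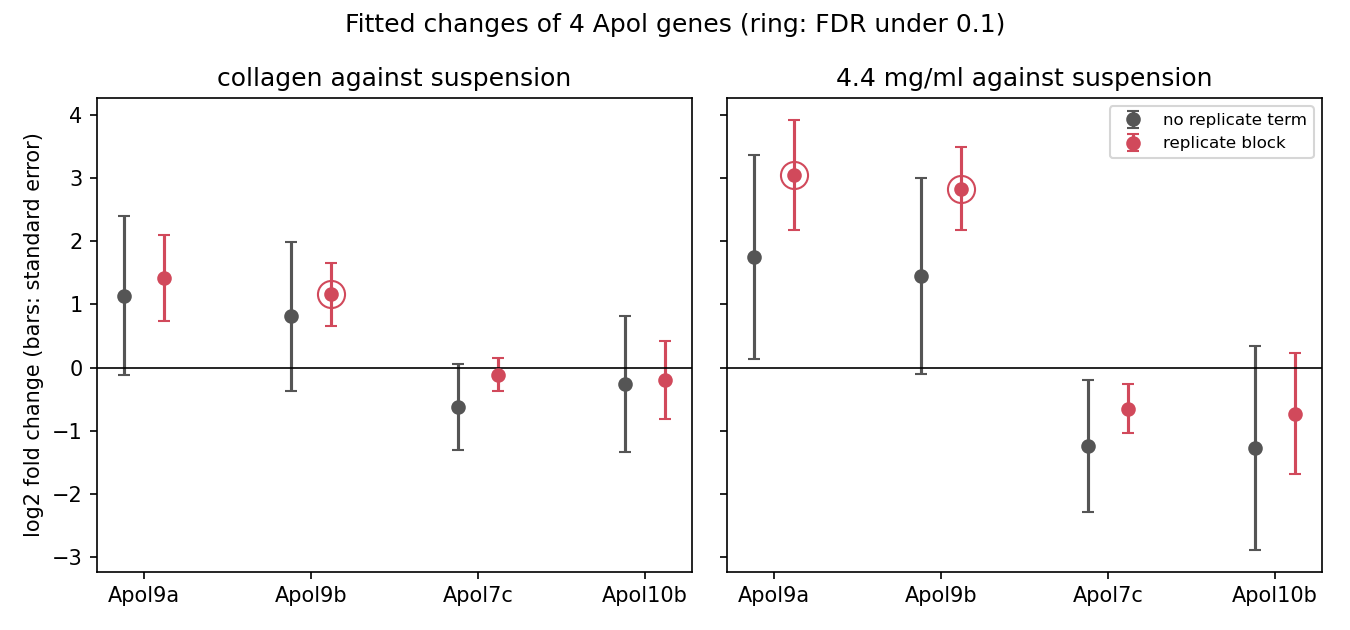
Fitted log2 fold changes of 4 Apol genes for collagen against suspension (left) and 4.4 mg/ml against suspension (right), without a replicate term (grey) and with the replicate block (red), with bars for the standard error and rings for an FDR under 0.1. Apol9b is ringed in both panels and Apol9a only for 4.4 mg/ml (log2 2.83 and 3.05 with the block), while the bars of Apol7c and Apol10b at collagen with the block include 0.

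Between the suspension groups, 0 of the 5 members passed in edgeR's quasi-likelihood test, where 0% of all genes did, and 855 genes had an unadjusted p under 0.05. Of the 5, Apol8 could hardly pass, because it had 1 count in all in suspension. With the block 0 of 5 and 0% of all genes passed. DESeq2 called 0 genes (0%) without the block and 194 (1.4%) with it. EdgeR without the filter called 385 genes (1.29%) with the block, Apol7c and Apol10b among them. The largest difference among members was that of Apol10b, which was lower in suspension titled plus CCL19 by a log2 fold change of -3.11 ± 1.81 (FDR 0.76). Apol7c differed by -1.25 ± 1.15 (FDR 0.81).

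The interferon-stimulated genes gave a reference for Apol9a and Apol9b. The summed level of 32 type I interferon-stimulated genes was 12256 to 13688 CPM in the collagen libraries of replicate 1 and 6256 and 8498 CPM in its suspension libraries. In replicate 2 it was 12600 CPM at 4.4 mg/ml and 2437 to 3876 CPM in the other 5 libraries, and in replicate 3 it was 2711 to 6890 CPM. The 7 libraries with more than 10 CPM of Apol9b were among the 8 with the highest summed level, as the plot of Apol9b against this level shows. The exception was replicate 3 at 4.4 mg/ml, with a sum of 6890 CPM and 1.25 CPM of Apol9b. The 7 libraries include every library of replicate 1, which is also a batch. The same 7 had the highest summed levels of 8 macrophage genes (1437 to 2224 CPM, next 1017 CPM). They were also among the 8 libraries with the highest summed level of 18 NF-kB targets. Which of these lists Apol9b follows was not tested. For Apol8, the libraries with the highest levels, 4.4 mg/ml in replicates 2 and 1 (6.39 and 3.02 CPM), had sums of 12600 and 13456 CPM, and the library with the highest sum, 1.7 mg/ml in replicate 1 (13688 CPM), had 0.31 CPM of Apol8.

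**Figure D5:**
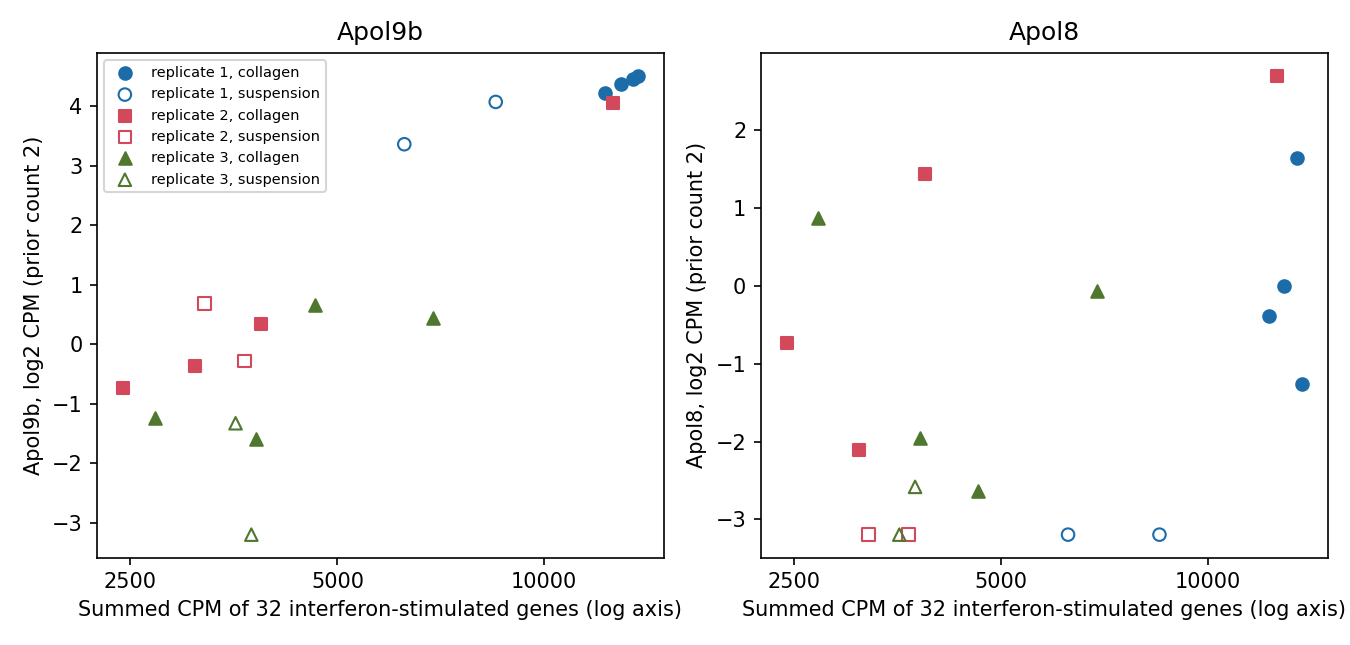
Log2 CPM (prior count of 2) of Apol9b (left) and Apol8 (right) against the summed CPM of 32 interferon-stimulated genes (log axis) in 18 libraries, with filled symbols for collagen, open symbols for suspension, and shapes for the replicates. Apol9b is highest in the 7 libraries with a sum of 6256 CPM or more other than the 4.4 mg/ml library of replicate 3, and Apol8 is highest in the 4.4 mg/ml libraries of replicates 2 and 1, with sums of 12600 and 13456 CPM.

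Of these 32 genes, 2 were higher and 1 lower in collagen (7.78% and 12.4% of all genes), with a median log2 fold change of 0.32 beside 0.0027 for all genes. Isg15, an interferon-induced modifier protein, rose by 1.13 ± 0.31 (FDR 0.024), and Mx1, an antiviral GTPase, by 0.99 ± 0.22 (FDR 0.0091), while Slfn5 fell by 1.06 (FDR 0.0090). At 4.4 mg/ml 4 were higher and 0 lower (6.55% and 8.29% of all genes), with a median of 1.11. With the block 22 were higher and 1 lower (15.8% and 16.2%), and without replicate 2 at 4.4 mg/ml 16 were higher and 0 lower with the block (12.5% and 12.6%). Rsad2, an antiviral enzyme of the same list, had a blocked change of 2.39 (FDR 0.00074) at 4.4 mg/ml, and of 1.53 without that library (FDR 0.022).

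Other lists gave the setting, and their counts in collagen stand beside 7.78% higher and 12.4% lower over all genes. Of 21 interferon gamma-inducible GTPases and partners tested, 0 were higher and 3 lower in collagen, namely Gbp7 (-1.13 ± 0.42, FDR 0.083), Ciita, the master regulator of MHC class II genes (-1.03 ± 0.21, FDR 0.0049), and Irf1 (-0.61 ± 0.16, FDR 0.019). Of 8 interferons, receptors, and kinases, 0 were higher and 2 lower, the kinase Tyk2 (-1.01 ± 0.19, FDR 0.0030) and the receptor chain Ifngr1 (-0.69 ± 0.23, FDR 0.056), and Ifnb1 had at most 21 counts in a library. Of 18 NF-kB targets, 3 were higher and 1 lower, with Il1b at 1.92 ± 0.49 (FDR 0.016), Il6 at 1.61 ± 0.41 (FDR 0.015), and Nfkbiz at 1.32 ± 0.36 (FDR 0.024). At 4.4 mg/ml 6 of these targets were higher and 0 lower (6.55% and 8.29% of all genes). With the block 10 were higher and 0 lower (15.8% and 16.2%). Without replicate 2 at 4.4 mg/ml the blocked fit had 7 higher and 3 lower (12.5% and 12.6%). That library had the highest summed level of these targets in all 18 libraries (22751 CPM). Of 10 cross-presentation and type 1 DC genes, 3 were higher and 2 lower, among them Cybb, the oxidase of the phagosome (1.23 ± 0.28, FDR 0.0096), Xcr1 (1.15 ± 0.41, FDR 0.074), and Wdfy4 (-0.92 ± 0.18, FDR 0.0034). At 4.4 mg/ml the interferon gamma list had 2 higher and 1 lower, with a median log2 fold change of 0.42 beside -0.11 for collagen. The list of interferons, receptors, and kinases had 1 higher and 2 lower there, and the cross-presentation list 2 higher and 1 lower.

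Markers of other cells moved with the same groups and replicates. The 7 tested eosinophil genes that were lower in collagen included Ear1 (-5.06 ± 0.68), Ccr3 (-3.51 ± 0.49), and Ear6 (-3.40 ± 0.49), and Il5ra of that list was too low to test. Of 10 neutrophil genes, 0 were higher and 2 lower (7.78% and 12.4% of all genes), Retnlg (-1.74 ± 0.41) and Ly6g (-1.27 ± 0.35). The summed levels of the 10 were 639 to 9768 CPM in suspension and 1056 to 5171 CPM in collagen. Of 8 macrophage genes, 0 passed without the block and 5 were higher with it (15.6% of all genes). The summed level of the 8 was 1447 to 2224 CPM in replicate 1, 445 to 1437 CPM in replicate 2, and 326 to 793 CPM in replicate 3. In suspension titled without CCL19 of replicate 3, the library with the highest Apol7c and Apol10b, the eosinophil sum was 500 CPM and the lymphocyte sum 11.8 CPM, beside 1.08 to 13.9 CPM over all suspension libraries. In replicate 2 at 4.4 mg/ml the eosinophil sum was 167 CPM and the macrophage sum 1437 CPM, the highest sums of both lists among the collagen libraries of its replicate. Its mast cell and basophil sum of 143 CPM was the highest of the 18 libraries, and its neutrophil sum was 1404 CPM, against 3744 to 5171 CPM in the other collagen libraries of its replicate. Of the mast cell and basophil, lymphocyte, and endothelial and fibroblast lists 0 genes passed without the block. The part of these cells in the Apol values was not tested.

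Neighbouring genes were described in the same way. Of 21 other genes in the table within 200 kb of the cluster, 10 were tested, of which 1 (Zfp7, 0.56 ± 0.20) was higher and 4 were lower in collagen (7.78% and 12.4% of all genes), with a median log2 fold change of -0.35. The 4 were Zfp251 (-0.94 ± 0.29), 1110038F14Rik (-0.55 ± 0.21), Foxred2 (-0.70 ± 0.24), and Myh9, the heavy chain of nonmuscle myosin IIA (-0.70 ± 0.21), which is the next gene beyond Apol8. Zfp7 and the 4 lower genes lie outside the Apol span.

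The genes most like each member were ranked by Pearson's r of log2 CPM over 18 libraries, which share replicates and groups, and r is given without a test. For Apol8 these were Gm16310 (0.92), Gm10647 (0.92), Chka, a choline kinase (0.91), Ttc16 (0.91), and Stil, a centriole assembly protein (0.91). Within single replicates (6 libraries each) r with Apol8 was 0.82 to 0.99 for these 5 genes. Gm16310, Gm10647, and Ttc16 had means of only 0.11, 0.015, and 0.040 CPM in suspension and 2.40, 0.53, and 0.83 CPM in collagen. Their values in suspension thus lay near the floor, as those of Apol8 did, and the ranking used the values that picked Apol8. Apol9a was most like Fam117b (0.96) and Rsad2 (0.96), and Apol9b most like Slc2a1, a glucose transporter (0.97), and P4ha2 (0.97). For Slc2a1 the r within replicates was -0.11, 0.94, and 0.87, so that likeness over all libraries did not hold within replicate 1. Apol7c was most like Riox2 (0.95) and Adam23 (0.95), and Apol10b most like Nostrin (0.91) and Exoc6b (0.90). No Apol member was among the genes listed for another, but only the few highest were listed, so this does not measure how alike the members were.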

How the data were processed

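RNA was measured in 18 libraries, 3 for each of 6 groups, grouped by title. The deposited values are raw counts per gene, whole numbers that the authors made after alignment with STAR (2.7.0f) to GRCm38 per the labels; the study's methods name RSEM for TPM values, and the tool behind the counts is not given in the sources used here. Counts were analysed in R 4.3.3 with edgeR 4.0.16 (filterByExpr, TMM scaling, quasi-likelihood F-test, 6 groups in a single fit, Benjamini-Hochberg FDR of 0.1) and DESeq2 1.42.0 as the alternative. Fold changes are log2, with standard errors computed from F. TMM-scaled library sizes went into CPM and into the floors of 3 counts. A prior count of 2 was added for log2 CPM. Counting ratios used total counts and an exact binomial interval. The fit was tested on simulated data.

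The members and gene lists were chosen with earlier results of these data known. Named genes were the members, the other Apol genes, up to 3 genes of each list past the threshold in collagen against suspension (largest absolute change), and the genes most like each member. Cell marker lists were also given by their summed level. Gm8221, Rsad2 at 4.4 mg/ml, and the neighbours were named after their values were seen.

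The replicate numbers pair the libraries, because each number has its own date and lane in the library names. Over genes, residuals from the group means had a mean r of 0.43 in 45 pairs with the same number and -0.21 in 90 pairs with different numbers and groups. The replicate block was an alternative, as were other scalings, no filter, summed duplicates, omitted replicates, and a threshold of 0.05. Omission of replicate 2 at 4.4 mg/ml and several combinations with the block were added after seeing the data.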

Additional observations from a re-analysis of the deposited data

Results flagged for a closer look

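In 5 of the 7 members with a row in the table, 1 suspension library stood apart from the other 5 by Dixon's test. Chance flags about 1 in 20 groups of values drawn from a single normal distribution. That rate does not carry over here, because the libraries come from different replicates, which are also batches, and several values are a few counts. The test statistic is the gap to the nearest library divided by the range of the 6. It was 0.6592 for Apol7c in replicate 3 of the group titled without CCL19 (328 CPM, next 116 CPM) and 0.6302 for Apol10b in the same library (4.92 CPM, next 1.82 CPM). It was 1 for Apol8, again in that library, where the value rests on 1 count and the other 5 libraries had 0. A single value above 0 gives 1 by the definition of the statistic, so for Apol8 it is no test. In replicate 2 of the group titled without CCL19 it was 0.788 for Apol6, with 4 counts, and 0.6358 for Apol7a, with 5 counts. These 5 values were not independent, since they come from 2 libraries.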

How the results depend on the processing

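Without the block and with the filter, edgeR called 0 members in each of 8 comparisons, in 7 of which Apol8 was not tested. In the remaining comparison, between the suspension groups, Apol8 had 1 count in all and could hardly pass. With the replicate block 1 was called for collagen against suspension and 2 for 4.4 mg/ml against suspension (34.8% and 31.9% of all genes). DESeq2 with the block called as many members (38.9% and 36.3% of all genes). Without the filter the counts were 2 and 3 (9.09% and 7.98% of all genes), and with the block as well 2 and 3 (15.1% and 14.3%). The unfiltered fit with the block also called 2 for the slope (2.1%), 2 for 4.4 against 1.7 mg/ml (2.36%), and 2 between the suspension groups (1.29%). The cause of these changes was not tested. In the fit without the block, the other scaling, the threshold of 0.05, DESeq2, and the fits on only the libraries compared also called 0. The threshold of 0.05 was not run with the block, where the FDR of Apol9b for collagen was 0.098.

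With replicates or replicate 2 at 4.4 mg/ml left out, with or without the block, 0 to 2 members were called for collagen, 0 to 3 for 4.4 mg/ml, and 0 in the other 6. The shares of all genes called in these fits were 4.47% to 37.6%, 0.751% to 25.1%, and 0% to 25.5%. The mean level of Apol8 over collagen was 0.956 to 1.81 CPM, and its difference between 4.4 and 1.7 mg/ml 3.42 to 5.35. The direction turned for Apol7c without replicate 3, to 0.38 and with the block 0.57 for collagen (range -1.06 to 0.57) and to 0.0038 with the block at 4.4 mg/ml (-1.47 to 0.0038). For Apol9b without replicate 2 the slope was -0.0013 and with the block -0.0479 (range -0.05 to 0.93), and 4.4 against 1.7 mg/ml was -0.05 and -0.17 (-0.17 to 3.11). Apol10b turned to 0.25 for collagen with the block (-0.61 to 0.25). Its range rests on 6 fits, against 8 for Apol7c, Apol9a, and Apol9b, because Apol10b did not pass the filter in the rest. Summing Apol10a with Apol10b was not run, because Apol10a is not analysed here. With 0 to 85 counts per library, the levels of Apol8 and Apol10b are limited by counting error.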
